A study of Drosophila melanogaster with 4 samples.

Results

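Muscle contracts by the sliding of myosin thick filaments along actin thin filaments. Tropomyosin and the troponins lie along the thin filament and open it to myosin when calcium is released, and the light chains of myosin set its working state. Drosophila carries several nearly identical actin genes used in different muscles: Act88F is the actin of the indirect flight muscles of the thorax, Act79B is used in tubular muscles of the thorax and legs, and Act57B and Act87E are used in muscles of the body wall. The head has muscles of its own, which move the mouthparts, the pharynx and the antennae.

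The genes described here are 10 sarcomere genes listed by name, 4 actins (Act88F, Act79B, Act57B, Act87E), the muscle myosin heavy chain Mhc, the myosin regulatory light chain Mlc2, the tropomyosins Tm1 and Tm2, troponin T (up) and troponin I (wupA). A cDNA clone was taken as a member where the annotation of the array named a single gene and that gene was on the list. The annotation held 6 such clones, each printed as 2 neighbouring spots, for 5 of the 10 genes. A value on at least 1 array was present for 4 clones, of Act88F, Act79B, Act87E and Mlc2, against 3769 named genes with a value on at least 1 array in the series as a whole. The single clone of Tm2 and the second clone of Act87E had no value on any array, and Act57B, Mhc, Tm1, up and wupA had no clone in the annotation used here. The list was therefore measured as actins and 1 myosin light chain, with no tropomyosin or troponin.

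Heads of unmated Oregon-R wild type males aged 10 to 11 days were compared after 3 days on food with ethosuximide at 3.48 mg/ml and after 3 days on normal food, with 30 flies per vial. Ethosuximide is a drug against absence seizures that blocks T-type calcium channels. Frozen heads were pooled after sieving, and 4 spotted cDNA arrays of 2 colours each carried labelled cRNA from 1 drug-fed pool and from 1 pool kept on normal food. Arrays 1 and 2 had the drug sample in Cy5, and arrays 3 and 4 had it in Cy3. Whether heads from one vial reached more than 1 pool is not stated, so that the spread over arrays may be in part technical.

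A deposited value is a normalized ratio of the dyes of 1 array, taken here as log2. The labels list Cy5 first, and the values were read as Cy5 over Cy3, with the sign turned on arrays 3 and 4 so that a value above 0 means higher with the drug. Neither the numerator nor the log base is stated, and the columns of the swapped arrays may already have been turned before deposit. The direction of every ratio is therefore unsettled, and the members are given below under the other reading too, in which no column is turned. Without turning, a centred value on array 3 or 4 has the opposite sign and one on array 1 or 2 is the same. If the numerator was Cy3 throughout, every sign changes.

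Of the 13824 clones on the slide, 36.9%, 22.9%, 7.96% and 5.87% had a value on arrays 1 to 4 after the authors' spot filters. The medians of the deposited columns over the 980 clones valued on at least 3 arrays were 0.74, 0.16, 0.24 and 0.63, so that a mean over arrays depends on which array lacks a value. Each array was therefore centred on that median after turning, and a centred ratio gives a clone relative to the typical clone of its array. Precision is limited throughout by the number of arrays. Photoreceptor genes, which mark the eye, were present in the material, since 10 of 11 such genes on the slide had a value on at least 1 array and 7 on at least 3. Of all clones with 1 gene name, 4046 of 7558 had a value on at least 1 array. A ratio gives no level, so the amount of muscle RNA in the heads was not measured.

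Among the actins, Act88F was the clone valued on all 4 arrays. The deposited values of its duplicate spots were 0.341 and 0.440 on array 1, 0.318 and 0.276 on array 2, 1.082 and 1.075 on array 3, and 1.259 and 1.367 on array 4. The duplicates lay within 0.108 of each other on every array, and the Cy5 over Cy3 ratio was higher on the arrays with the drug in Cy3 than on those with it in Cy5. After turning and centring, the drug over normal food ratio of Act88F (log2) was -0.35, 0.14, -0.84 and -0.68 on arrays 1 to 4. The ratio was below 0 on 3 of the 4 arrays and furthest below it on the swapped ones. In size it was at or above 91.1% and 87.4% of all clones valued on arrays 3 and 4, and 61.0% and 29.2% of those on arrays 1 and 2.

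Over the 4 arrays Act88F averaged -0.43 ± 0.43 (SD, n = 4), or 0.741-fold with the drug relative to normal food. The 95% interval of limma's fit ran from -0.81 to -0.06. Act88F did not pass limma's test over all 980 clones (adjusted p = 0.338, unadjusted p = 0.0279), and its p was the 81st lowest. In an exact two-sided sign-flip permutation test over arrays the p was 0.25, and the least that 4 arrays allow is 2 of the 16 sign patterns, so that this test cannot pass 0.05. In bulk tissue, a change in the number of muscle cells and a change in actin RNA per cell cannot be told apart.

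**Figure D1:**
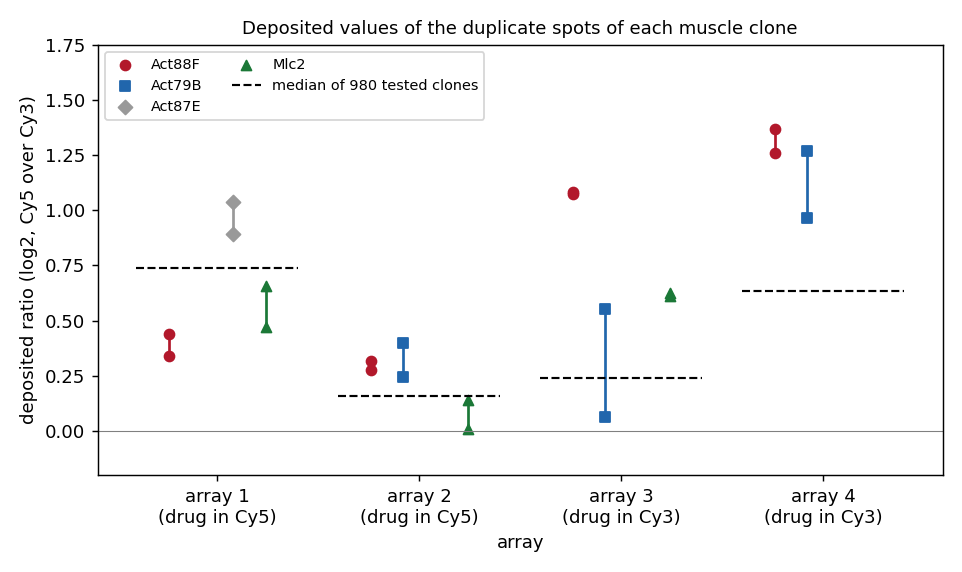
Deposited ratios (log2, Cy5 over Cy3) of the duplicate spots of each muscle clone on arrays 1 to 4, with a line joining the duplicates and a dashed line at the median of the 980 tested clones. Act88F lies above that median on arrays 3 and 4, near it on array 2 and below it on array 1, and the duplicates of Act79B on array 3 lie on either side of it.

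Act79B, the actin of tubular muscles, had no value on array 1. Its duplicate spots were deposited at 0.400 and 0.246 on array 2, at 0.065 and 0.554 on array 3, and at 1.269 and 0.967 on array 4. The gap of 0.489 between the spots on array 3 was at least as wide as that of 93.4% of tested clones there. On array 4 the gap of 0.302 was at least as wide as that of 85.4% of tested clones. The median gap was 0.145 on array 3 and 0.115 on array 4, so that the values of this clone on both arrays are loosely fixed. After turning and centring, Act79B was at 0.16 on array 2, -0.07 on array 3 and -0.49 on array 4. The arrays went both ways, and the mean was -0.13 ± 0.33 (SD, n = 3), with an interval from -0.51 to 0.25 and a limma adjusted p of 0.822.

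Act88F and Act79B were both valued on arrays 2, 3 and 4. Act88F minus Act79B was -0.03, -0.77 and -0.20 there, with a mean difference of -0.33 ± 0.39 (SD, n = 3). The actins lay side by side on array 2 and furthest apart on array 3, where the spots of Act79B disagreed. The exact sign-flip p of this difference was 0.25, the smallest that 3 arrays allow. The files do not give the inserts of the clones, and an insert from the shared coding part of an actin gene could bind transcripts of the other actins, so values of single actin genes are uncertain. Act5C and Act42A, the actins of the cytoplasm, had no clone in the annotation used here.

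Act87E, an actin of body wall muscle, had a value on array 1 alone, for 1 of its 2 clones. Its spots were deposited at 1.039 and 0.891, and its centred ratio was 0.22, on the other side of 0 from Act88F on the same array (-0.35). A single array allows no test.

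Mlc2 encodes the regulatory light chain of muscle myosin and was valued on arrays 1, 2 and 3. Its duplicate spots were deposited at 0.658 and 0.469, at 0.008 and 0.139, and at 0.612 and 0.625. After turning and centring, Mlc2 was at -0.18, -0.09 and -0.38. It was the one tested member below 0 on every array that measured it, and its values lay closer together than those of the actins. The mean was -0.21 ± 0.15 (SD, n = 3), or 0.862-fold with the drug, with an interval from -0.54 to 0.12. Mlc2 did not pass limma's test (adjusted p = 0.549), and with each clone's own spread, in the unmoderated statistic, the adjusted p was 0.610. Act88F minus Mlc2 was -0.17, 0.22 and -0.46 on arrays 1 to 3, a mean of -0.14 ± 0.34 (SD, n = 3) that changed sign between arrays. Act79B minus Mlc2 was 0.25 and 0.31 on arrays 2 and 3, the arrays that measured both.

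**Figure D2:**
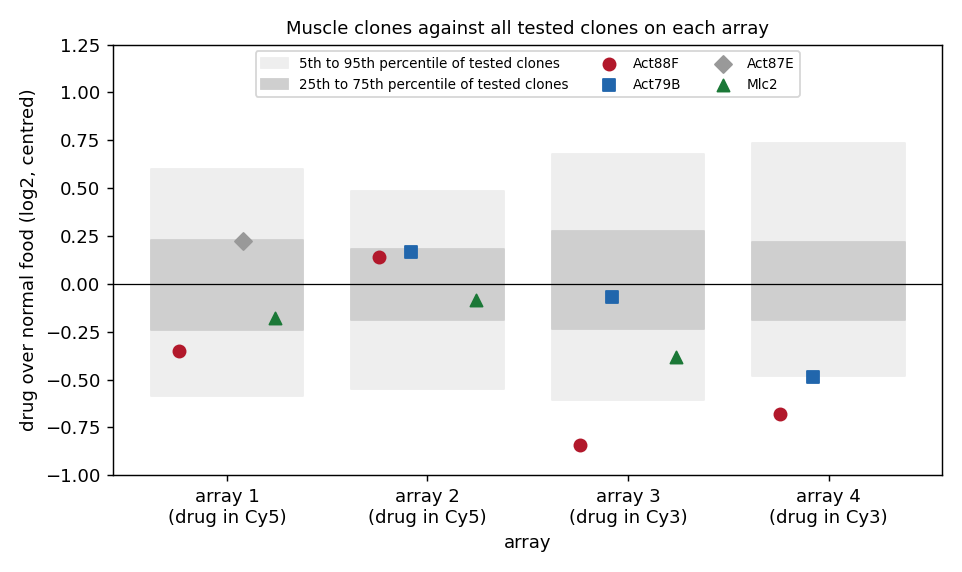
Centred log2 ratios of drug over normal food for the muscle clones on arrays 1 to 4, over grey bands from the 25th to the 75th and from the 5th to the 95th percentile of the tested clones. Act88F lies below the wider band on arrays 3 and 4, at -0.84 and -0.68, and Mlc2 lies below 0 on each of its 3 arrays.

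In all, 0 of the 3 tested member clones passed an adjusted p of 0.05, against 14 of all 980 (1.43%). At an unadjusted p under 0.05 there was 1 member, Act88F, against 12.1% of all tested clones. The 3 mean ratios lay below 0, with a median of -0.21. Over all 515 genes tested the median was 0.02, and 239 were below 0.

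The sign of these means rested on the reading of the swapped columns. With no column turned, the centred ratios of Act88F were -0.35, 0.14, 0.84 and 0.68, with a mean of 0.33 ± 0.54 (SD, n = 4). Those of Act79B were 0.16, 0.07 and 0.49, above 0 on all 3 arrays, with a mean of 0.24 ± 0.22 (SD, n = 3). Those of Mlc2 were -0.18, -0.09 and 0.38, with a mean of 0.04 ± 0.30 (SD, n = 3). Among centred ratios, each reading thus gave 1 of the 3 clones the same sign on all its arrays, Mlc2 in the first and Act79B in the second. Neither gave it for Act88F. Under the second reading the limma adjusted p was 0.726 for Act88F, 0.771 for Act79B and 0.972 for Mlc2, with intervals from -0.12 to 0.78, from -0.13 to 0.61 and from -0.35 to 0.43.

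Without centring and with no column turned, Act88F averaged 0.77 ± 0.50 (SD, n = 4) and passed limma's test (adjusted p = 0.0467). The median of all tested clones under that setting was 0.40, so the column medians, which stay in without centring, are part of this value. Under that setting each tested member was above 0 on every array that measured it, as was each column median. Without centring and with the swapped columns turned, Act88F was at -0.43 ± 0.89 (SD, n = 4), Act79B at -0.37 and Mlc2 at 0.0062.

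**Figure D3:**
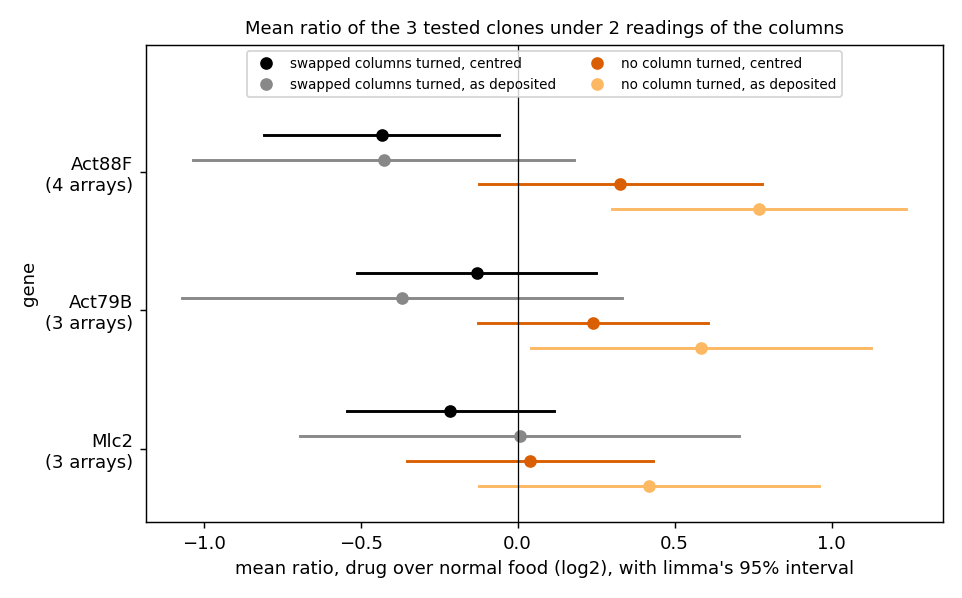
Mean ratio (log2, drug over normal food) for the 3 tested clones, with limma's 95% interval, with the swapped columns turned or not and with each array centred or as deposited. The centred mean of Act88F is -0.43 with the columns turned and 0.33 without, and the interval that lies wholly above 0 for Act88F belongs to the uncentred values with no column turned.

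When limma's model held both a drug and a dye coefficient, the drug ratio of Act88F was -0.43, as it must be with 2 arrays in each orientation, with an adjusted p of 0.112. That of Act79B was -0.06, against -0.13 without the dye coefficient, and that of Mlc2 was -0.26 (adjusted p = 0.853 and 0.332). The dye effect of Act88F, by which each orientation departs from the average of both, was 0.33 (adjusted p = 0.269, unadjusted p = 0.0225). Of all tested clones, 14.1% reached an unadjusted p under 0.05 in the dye coefficient. The mean centred ratio of Act88F was -0.76 on the arrays with the drug in Cy3 and -0.11 on those with it in Cy5. For Act79B these means were -0.28 and 0.16, the second from 1 array, and for Mlc2 -0.38, from 1 array, and -0.13. All 3 clones were lower with the drug in Cy3, and the dye effects of Act79B and Mlc2 were 0.22 and 0.12 (adjusted p = 0.541 and 0.715). Between arrays of one orientation, the turned and centred ratios of all tested clones were correlated. There r was 0.52 for arrays 1 and 2 and 0.42 for arrays 3 and 4. Across orientations r lay between 0.05 and 0.24, and with no column turned these r have the opposite sign. These are correlations across clones, which are not independent replicates.

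Of 29 other muscle genes listed (myosin light chain, thick filament, Z-disc, troponin C and calcium release genes), 9 had a clone in the annotation and 3 a value, and none was valued on 3 arrays, so none was tested. TpnC4, a troponin C of the indirect flight muscles, was at a centred ratio of -0.76 on array 1, and TpnC73F, another troponin C, at 0.28 there. Zasp66, of the Z-disc, had one clone at -0.36 and -0.24 on arrays 1 and 2 and another at 0.23 on array 2. On array 1, where most of these values lie, the muscle genes therefore stood on both sides of the typical clone, with TpnC4, Act88F, Zasp66 and Mlc2 below it and Act87E and TpnC73F above it. The correlation of duplicate spots was lowest on array 1 (r = 0.39, against 0.61, 0.79 and 0.69 on arrays 2 to 4). The median gap of tested clones, 0.134, lay within the range of the other arrays, 0.109 to 0.145. TpnC4, TpnC73F and Act87E had a value on array 1 alone.

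Genes of the actin and myosin machinery outside muscle were covered as thinly. Of 13 listed, chic, which encodes profilin, and Mlc-c, a light chain of cytoplasmic myosin, had values. With its 2 clones joined, chic had a mean centred ratio of -0.02 over 3 arrays. Mlc-c was at -0.31 on array 2 and, after turning, 0.17 on array 3.

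Heads collected on a sieve can hold other tissue, and the indirect flight muscles lie in the thorax. Of the 8 genes listed as flight muscle markers, Act88F and TpnC4 had a value and Prm had a clone without a value. The others, fln, Strn-Mlck, Mf, Tm1 and wupA, had no clone in the annotation used here. The list also held genes of muscle in general, Tm1 and wupA among them, which do not set flight muscle apart from head muscle. The part of thoracic muscle in the ratio of Act88F was not tested.

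Genes of other cell types of the head were measured on the same arrays. The 7 tested photoreceptor genes had a median centred ratio of -0.28, with 6 of 7 below 0, and a median of -0.34, -0.21, -0.47 and -0.10 on arrays 1 to 4. Among them chp (chaoptin, an adhesion protein of photoreceptor membranes) was the lowest, at -0.45, or 0.10 with no column turned. Arr1 was the one above 0, at 0.26, or 0.16 with no column turned. Gs2, a glutamine synthetase of glia, was at -0.35, or -0.16 with no column turned. The 4 fat body genes had means between 0.07 and 0.40, with 0 of 4 below 0, and the 3 neuronal genes had a median of 0.13. Single arrays of the fat body genes went both ways, except for FASN1, which was above 0 on every array that measured it. Amyrel was at 0.19, -1.17 and 1.24 on arrays 1 to 3, and Adh was at -0.53 on array 3. None of these 15 genes passed limma's test in the gene-level fit, in which 9 of all 515 genes passed as higher and 2 as lower. At an unadjusted p under 0.05 there were 3 of the 15, chp, Gs2 and FASN1. The share of all genes at that level was not computed, and over all tested clones it was 12.1%. With no column turned, the medians were 0.10 for the photoreceptor genes, -0.11 for the fat body genes and -0.11 for the neuronal genes. In that reading 2 of 7 photoreceptor genes and 0 of 3 muscle genes were below 0. The part of cell composition in the ratios of the muscle genes was not tested.

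**Figure D4:**
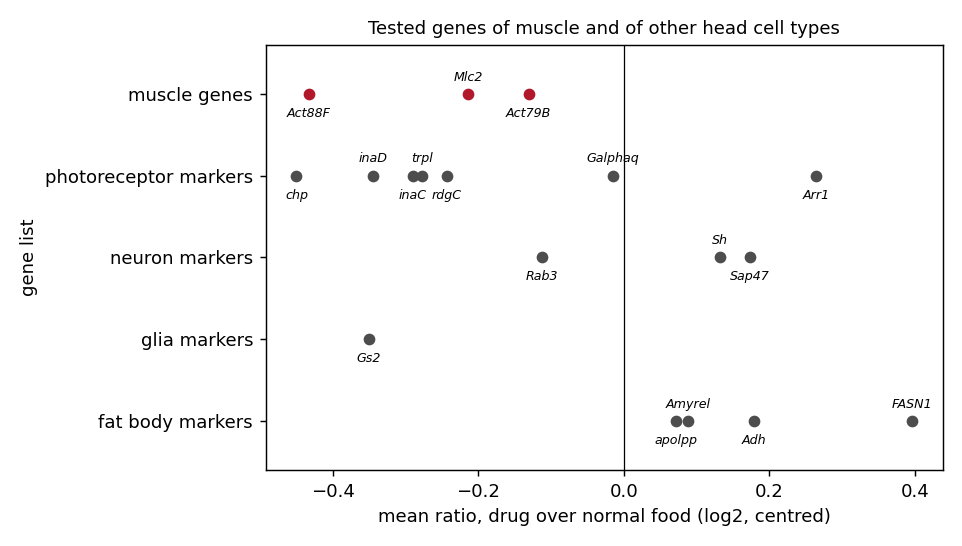
Mean centred ratio (log2, drug over normal food) for each tested gene, by list, under the reading with the swapped columns turned. The 3 muscle genes and 6 of 7 photoreceptor genes lie below 0, and the 4 fat body genes lie above it.

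Among 183 other named clones valued on all 4 arrays, the ones nearest to Act88F in their 4 centred ratios were those of Msr-110, Gbs-70E, CG14109, CG6696 and MED26, at Euclidean distances from 0.453 to 0.646 (log2). Msr-110 was at -0.45, -0.13, -0.64 and -0.39 on arrays 1 to 4. Gbs-70E, which encodes a glycogen-binding subunit of a protein phosphatase, was at -0.59, -0.29, -0.64 and -0.64, and with no column turned its mean was 0.10. CG14109 and CG6696 were at 0.13 and 0.14 on array 1, on the other side of 0 from Act88F there. MED26, a Mediator subunit, was at -0.39, 0.13, -0.63 and -0.07. All 5 have a low value on array 3, as their choice by nearness to Act88F implies, and none is a muscle gene of the lists used here.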

How the data were processed

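Per the series' design text, slides were quantified with GenePix Pro 6.0, ratios were normalized in Acuity 4.0, and spots were filtered by the authors on intensity, saturation, flags, uniformity and signal to noise. A missing value therefore does not show that a gene was silent. The deposited values were taken as log2 ratios, and the labels give the dye of each channel. The genome build is not given in the sources used here, and no coordinates were used.

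Neighbouring spots were averaged, since 7558 of 7558 such pairs named the same gene. Of 27648 spots, 15116 had 1 gene symbol, 102 several, and 14894 of the first matched a RefSeq symbol (Release 6) by Entrez number. The test was limma 3.58.1 (R 4.3.3; lmFit, eBayes) on clones with 3 or more valued arrays (one-class against 0, two-sided, Benjamini-Hochberg over all 980 clones, threshold 0.05), after a test on simulated data. Gene-level values average the clones of a gene. The members and lists were chosen with earlier results of these data known. Named were all members, every other muscle gene with a value, and the 5 clones nearest to the members valued on all arrays, which left Act88F. Cals, a calsyntenin listed by error, was dropped from the muscle list, and markers are named beside a result only as examples chosen after their values were seen. Alternatives were no centring, the other reading of the columns, other centring sets, a dye term, unmoderated statistics, a filter of 2 arrays, complete duplicates, and leaving out each array.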

Additional observations from a re-analysis of the deposited data

Results flagged for a closer look

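Act79B stood on opposite sides of the typical clone in the different dye orientations, at -0.07 and -0.49 with the drug in Cy3 and at 0.16 on the single array with the drug in Cy5 that measured it. The mean of the Cy5 orientation minus that of the Cy3 orientation was 0.44. With 1 array in the Cy5 orientation, the data cannot say whether the orientations differ for this clone. Act88F was the one member measured on 4 arrays. The widest gap at an end of its values was 0.499 of the whole range, below Dixon's limit. With 4 arrays that limit is passed only by a gap taking up most of the range. The test therefore cannot show that no array lay apart. Array 2, at 0.14, was the one on which Act88F stood above the typical clone. Leaving out each array in turn gave means from -0.62 to -0.30, the lowest without array 2.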

How the results depend on the processing

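With main values of -0.43 for Act88F, -0.13 for Act79B and -0.21 for Mlc2, 36 alternative ratios were computed, of which 8 changed sign and 1 passed. Some of the 36 could not change sign. Complete duplicates and unmoderated statistics left every mean as it was, and so did leaving out an array without a value and the dye term for Act88F. The other reading of the columns gave 0.33, 0.24 and 0.039 when centred, and 0.77, 0.58 and 0.42 as deposited, where Act88F passed and the number of member clones called became 1. A dye term put Act79B at -0.06. Deposited values with the swapped columns turned put Mlc2 at 0.0062. The other reading differs from the main setting in the signs of the swapped arrays, and the deposited values differ in their retained column offsets. A dye term changes neither, and the cause of these moves was not tested. Leaving out each array gave -0.62 to -0.30 for Act88F, -0.28 to 0.0465 for Act79B, above 0 without array 4, and -0.28 to -0.13 for Mlc2. Without array 2 the adjusted p of Act88F was 0.0819, the lowest of the 4, and without array 1 the highest, 0.715. Over all clones, 14 passed (12 higher, 2 lower), against 5 (5 higher, 0 lower) on deposited values, 0 under the other reading centred (86 at an unadjusted p under 0.05) and 32 under it as deposited, 28 with a dye term, 0 with unmoderated statistics (105 at an unadjusted p under 0.05), and 5 to 23 with an array left out (5 without array 1, 23 without array 2, 7 without array 3). For the counts with a dye term, with unmoderated statistics and with an array left out the cause was not tested. No value of a tested clone came from a single spot, so requiring both spots changed nothing. With a filter of 2 arrays 1 other muscle gene could be tested, Zasp66, and it did not pass; the median of that list was not run. No paired analysis was possible because drug and normal food share each array and the test already uses their ratio. Depth is not a count here: missing values left 3 member genes for the test.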
